A study of Homo sapiens with 12 samples.

Results

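The glycolysis and hypoxia-response genes are 39 genes picked by symbol from a list of glucose and lactate transporters, glycolytic enzymes and their regulators, and the subunits, hydroxylases and targets of the hypoxia-inducible factors (HIF). Their symbols were mapped to the Ensembl identifiers of the count tables, which list 36675 genes in all. All 39 genes were listed for the A375 melanoma line and 38 for the CHL1 melanoma line, where carbonic anhydrase CA9 was missing from a table that lists no gene with 0 counts throughout. By role they comprised 3 transporters, 16 glycolytic enzymes, 3 regulators, 2 HIF alpha subunits, 2 HIF prolyl hydroxylases and 13 other HIF targets.

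RNA of both lines was sequenced beside that of palbociclib-resistant cells derived from them. Palbociclib is an inhibitor of the kinases CDK4 and CDK6 and blocks entry into S phase. The resistant A375 cells, labelled A375AR991, were raised in stepwise higher palbociclib for 7 months, and the resistant CHL1 cells, labelled CHL1AR991, for 3 months. Both were then kept in supplemented RPMI with 4 µM palbociclib, parental cells grew in supplemented RPMI without it, and all spent 72 h drug-free before extraction. The design holds 4 groups of 3 libraries, numbered 1 to 3, of between 25398920 and 29812686 counts. A375 carries a mutant BRAF kinase and CHL1 does not. Each resistant state is a single derived line, so properties of resistance and of that derivation cannot be told apart. Whether libraries stem from separate cultures is not in the labels, and the p-values speak for the spread between these libraries alone, which may be technical. The labels give no oxygen level, and no hypoxic treatment is described.

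Glycolysis splits glucose into pyruvate in the cytosol, and lactate dehydrogenase and lactate export keep it running when mitochondria do not take the pyruvate up. In oxygenated cells the prolyl hydroxylases EGLN1 to EGLN3 mark HIF alpha subunits for destruction through VHL, and when oxygen falls the subunits pair with ARNT and raise transcription of glycolytic and other target genes. HIF activity is set mainly by protein stability, so the mRNA of HIF1A or EPAS1 does not report it. Melanoma cells are known for high glycolytic flux in ordinary oxygen, and the pigment cell factor MITF can raise HIF1A transcription.

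The melanoma label was checked against 12 melanocyte and melanoma markers. The neural crest factor SOX10 stood at 400 ± 80.8 CPM (library-size scaled counts with TMM factors; SD, n = 3) in parental and 295 ± 81.9 in resistant A375, and at 1051 ± 112 and 1031 ± 93.3 in CHL1. The pigment genes PMEL and MLANA were at or below 1.07 CPM in the mean of every group, and TYR was at 0 in all A375 libraries. Of 10 markers tested in A375, TYRP1 rose, from 0.210 to 1.74 CPM, and MITF fell, from 46.2 to 33.1 CPM. Of 12 tested in CHL1, S100B rose, from 114 to 184 CPM, and DCT (44.6 to 19.1 CPM), MITF (33.4 to 25.8 CPM) and MIA (29.4 to 24.3 CPM) fell. Of 9 fibroblast markers, the summed level ran from 21.5 to 25.6 CPM in parental A375 and from 48.6 to 57.5 CPM in resistant A375. Of 8 tested there, 5 were called higher and 1 lower, where 13.4% of all genes tested were higher and 14.8% lower. LUM (6.76 to 20.2 CPM), COL1A2 (0.384 to 13.9 CPM) and FAP (0.198 to 2.23 CPM) were among those that rose. PDGFRB fell (8.08 to 3.61 CPM). The melanocyte sum ran from 665 to 986 CPM in parental and from 404 to 654 CPM in resistant A375. Over the CHL1 libraries it ran from 1788 to 2095 CPM. In CHL1 the fibroblast sum ran from 17.0 to 23.1 CPM in parental and from 11.5 to 14.1 CPM in resistant libraries, with PDGFRA at 0 in both groups. Epithelial markers, 8 of 9 matched, summed to between 399 and 491 CPM in parental and between 479 and 538 CPM in resistant A375, mostly KRT18, and to between 31.7 and 35.3 CPM in CHL1. Of 5 tested in A375, KRT18 rose (316 to 411 CPM) and KRT14 (22.4 to 4.37 CPM) and KRT5 (0.938 to 0.012 CPM) fell. Of 5 tested in CHL1, KRT14 rose (1.72 to 3.61 CPM) and KRT8 and KRT10 fell. In each line 60.0% of those tested were called, against 28.3% of all genes in A375 and 21.0% in CHL1. Leukocyte markers summed to between 48.3 and 74.4 CPM in A375, nearly all CD68, with CD3E and MS4A1 at or near 0. In CHL1 they summed to at most 11.4 CPM, and there the pan-leukocyte gene PTPRC averaged 9.54 CPM in parental and 9.23 CPM in resistant libraries. Endothelial markers, 4 of 6 matched, summed to at most 14.8 CPM in A375 and 2.63 CPM in CHL1. The part of these levels in the results below was not tested, and in bulk RNA fewer cells of a type and less RNA per cell cannot be told apart.

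HIF binds a short DNA core, ACGTG or GCGTG, in the hypoxia response elements of its targets. RefSeq promoter windows of GRCh38.p14, each holding 250 bases before and 50 after a start, were found for 35 of the 39 genes (63 windows) and searched for both motifs on both strands, so that the palindrome CACGTG counts once per strand. At least 1 window with ACGTG belonged to 21 of the 35 genes, and either motif to 32. Of all 35116 windows, 21.4% held ACGTG and 48.4% held either motif, against 39.7% and 68.3% of the 63 windows of these genes. Of the 13 genes with a window that were lower in resistant A375, 10 held ACGTG, and of the other 22 genes 11 did. In these gene counts a match in any window of a gene sufficed, and genes differ in their number of windows. The shares over all windows are therefore no background for the gene counts. Whether lower genes held ACGTG more often than other genes was not tested. A match is a description of the letters, not of a bound site. BNIP3L, NDRG1, SLC2A3 and VEGFA had no window. The 250 bases before the start are printed for 4 genes with a single listed start that were lower in resistant A375, and for PGK1, a glycolytic enzyme that passed the test in neither line. Lower genes without ACGTG were not printed. The 5 printed genes were picked after their values were seen, and all 5 hold ACGTG. Each runs 5′ to 3′ on its gene's strand, with motif matches in capitals; a match on the other strand reads CACGT or CACGC. The windows lie at chr9:35673678-35673927 (plus strand), chr4:185396591-185396840 (plus), chr10:131981924-131982173 (minus), chr17:28576896-28577145 (minus) and chrX:78103998-78104247 (plus).
CA9: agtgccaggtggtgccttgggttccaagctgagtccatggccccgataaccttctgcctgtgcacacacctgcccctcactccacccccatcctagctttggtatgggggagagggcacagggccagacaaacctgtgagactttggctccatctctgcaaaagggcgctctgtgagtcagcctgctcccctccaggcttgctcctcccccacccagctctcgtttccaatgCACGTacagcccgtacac
ANKRD37: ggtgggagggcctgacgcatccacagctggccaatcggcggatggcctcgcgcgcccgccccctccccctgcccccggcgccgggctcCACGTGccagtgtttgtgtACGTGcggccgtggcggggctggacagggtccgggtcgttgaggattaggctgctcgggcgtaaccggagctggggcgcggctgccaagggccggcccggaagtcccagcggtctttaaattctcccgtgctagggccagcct
BNIP3: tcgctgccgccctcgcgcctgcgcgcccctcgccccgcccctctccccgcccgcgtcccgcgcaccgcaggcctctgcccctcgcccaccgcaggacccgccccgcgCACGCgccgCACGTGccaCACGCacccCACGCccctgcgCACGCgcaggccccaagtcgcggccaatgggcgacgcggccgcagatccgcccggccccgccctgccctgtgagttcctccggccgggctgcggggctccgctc
ALDOC: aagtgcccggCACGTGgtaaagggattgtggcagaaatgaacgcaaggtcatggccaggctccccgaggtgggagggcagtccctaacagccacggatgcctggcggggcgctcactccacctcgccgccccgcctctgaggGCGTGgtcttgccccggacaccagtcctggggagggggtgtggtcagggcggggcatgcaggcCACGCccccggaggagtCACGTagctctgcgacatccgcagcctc
PGK1: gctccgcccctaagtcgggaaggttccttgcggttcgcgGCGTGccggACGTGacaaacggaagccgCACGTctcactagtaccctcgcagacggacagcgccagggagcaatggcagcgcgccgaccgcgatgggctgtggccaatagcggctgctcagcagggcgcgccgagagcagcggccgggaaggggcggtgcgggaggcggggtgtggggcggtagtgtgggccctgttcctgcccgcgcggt
CA9 held a single ACGTG match, 18 bases before the start. ANKRD37 held 3, BNIP3 2 with 4 GCGTG matches, ALDOC 3 with 2 GCGTG matches, and PGK1 2 with 1 GCGTG match. PGK1, not called in either line, thus held the ACGTG letters too.

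Resistant A375 cells had less mRNA for the glucose importer SLC2A1, the lactate exporter SLC16A3, 6 glycolytic enzymes and 7 HIF targets, among them CA9, BNIP3 and VEGFA, but more for PFKFB3, GPI and PKM. In resistant CHL1 cells 9 genes fell, none by more than 0.51 on the log2 scale, and SLC2A1, ALDOC and TPI1 were lower in both lines. Of these, SLC2A1 alone kept its call in both lines under every alternative setting. Calls use edgeR's quasi-likelihood test over the whole table of a line, with a threshold of 0.05 on the Benjamini-Hochberg adjusted p. In A375, 3 of the 39 genes rose, 15 fell and 21 were not called, where 28.3% of all 18086 genes tested were called, 13.4% higher and 14.8% lower. In CHL1, 36 of the 39 passed the filter on low counts (CA9, EGLN3 and ADM did not), and 0 rose, 9 fell and 27 were not called, where 21.0% of 17219 genes were called, 9.5% higher and 11.5% lower. Their median log2 fold change was -0.17 in A375 and -0.07 in CHL1, beside -0.0008 and 0.0058 over all genes tested. The libraries of the resistant and parental groups did not overlap for 21 of 39 genes in A375, where that held for 42.8% of all genes tested, and for 16 of 36 in CHL1, where it held for 36.7%. Decreases past 2-fold among the called genes were seen in A375 for CA9 and CA12 and in CHL1 for none.

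**Figure D1:**
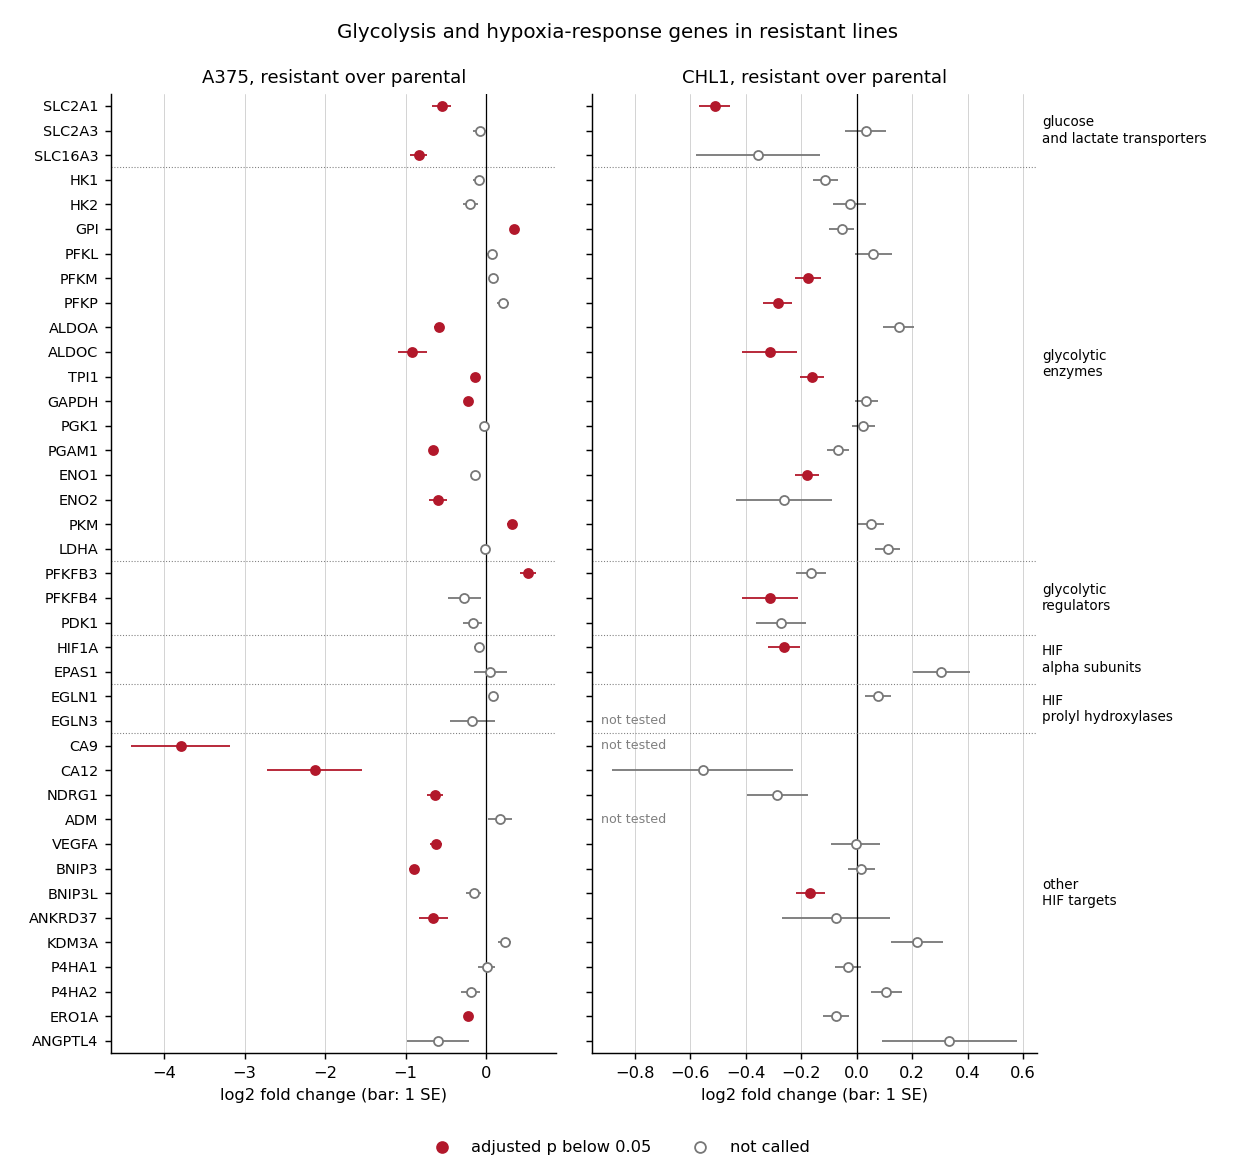
Log2 fold change of resistant over parental cells for each gene, in rows grouped by role, in A375 (left) and CHL1 (right); bars are 1 SE, filled points passed an adjusted p of 0.05, and the horizontal scales of the panels differ. In A375 CA9 (-3.79) and CA12 (-2.13) lie far from the rest, and in CHL1 the lowest called gene is SLC2A1 (-0.51).

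SLC2A1 (GLUT1; ENSG00000117394, chromosome 1) is the widespread basal importer of glucose. Its level was 298, 391 and 321 CPM in parental A375 libraries 1 to 3 and 212, 265 and 212 CPM in resistant ones. Parental libraries were all above resistant ones, with library 2 the highest of each group. SLC2A1 fell by 0.55 ± 0.12 (log2, SE) in A375, with an edgeR adjusted p of 0.00767. In CHL1 it was 150, 127 and 137 CPM in parental and 96.5, 96.0 and 97.4 CPM in resistant libraries, so the groups again did not overlap and the resistant libraries were nearly level. There it fell by 0.51 ± 0.06 (edgeR adjusted p = 6.82e-05). The effects in the lines differed by 0.04 (log2), with a 95% interval from -0.24 to 0.32. SLC2A1 was called lower under every alternative setting in both lines.

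The other glucose transporter, SLC2A3 (GLUT3), did not pass the test in either line, with 34.7 ± 2.08 CPM (SD, n = 3) in parental and 32.7 ± 3.05 in resistant A375 and 19.2 ± 0.501 and 19.6 ± 1.46 in CHL1. Its share of the counts per kilobase of the pair was 8.89% ± 1.09 and 11.9% ± 1.71 in A375 and 11.6% ± 1.07 and 15.9% ± 0.94 in CHL1, higher in all resistant than in all parental libraries of each line. SLC16A3 (MCT4; ENSG00000141526, chromosome 17), the exporter of lactate in glycolytic cells, read 20.3, 17.2 and 17.0 CPM in parental A375 and 9.71, 10.8 and 9.89 CPM in resistant A375. All resistant libraries lay well under the parental ones, and it fell by 0.84 ± 0.10 (edgeR adjusted p = 0.000441). In CHL1 it was near 1 CPM, with 81 counts in the parental and 63 in the resistant group, and was not called (adjusted p = 0.303). The other lactate transporter SLC16A1, outside the 39 genes, was at 209 ± 22.5 CPM in parental and 225 ± 13.5 CPM in resistant A375 and was not called (log2 0.11, adjusted p = 0.381). SLC16A3 shares 482 exonic bases with CSNK1D on the opposite strand, and reads there cannot be told apart because the kit does not mark strand.

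**Figure D2:**
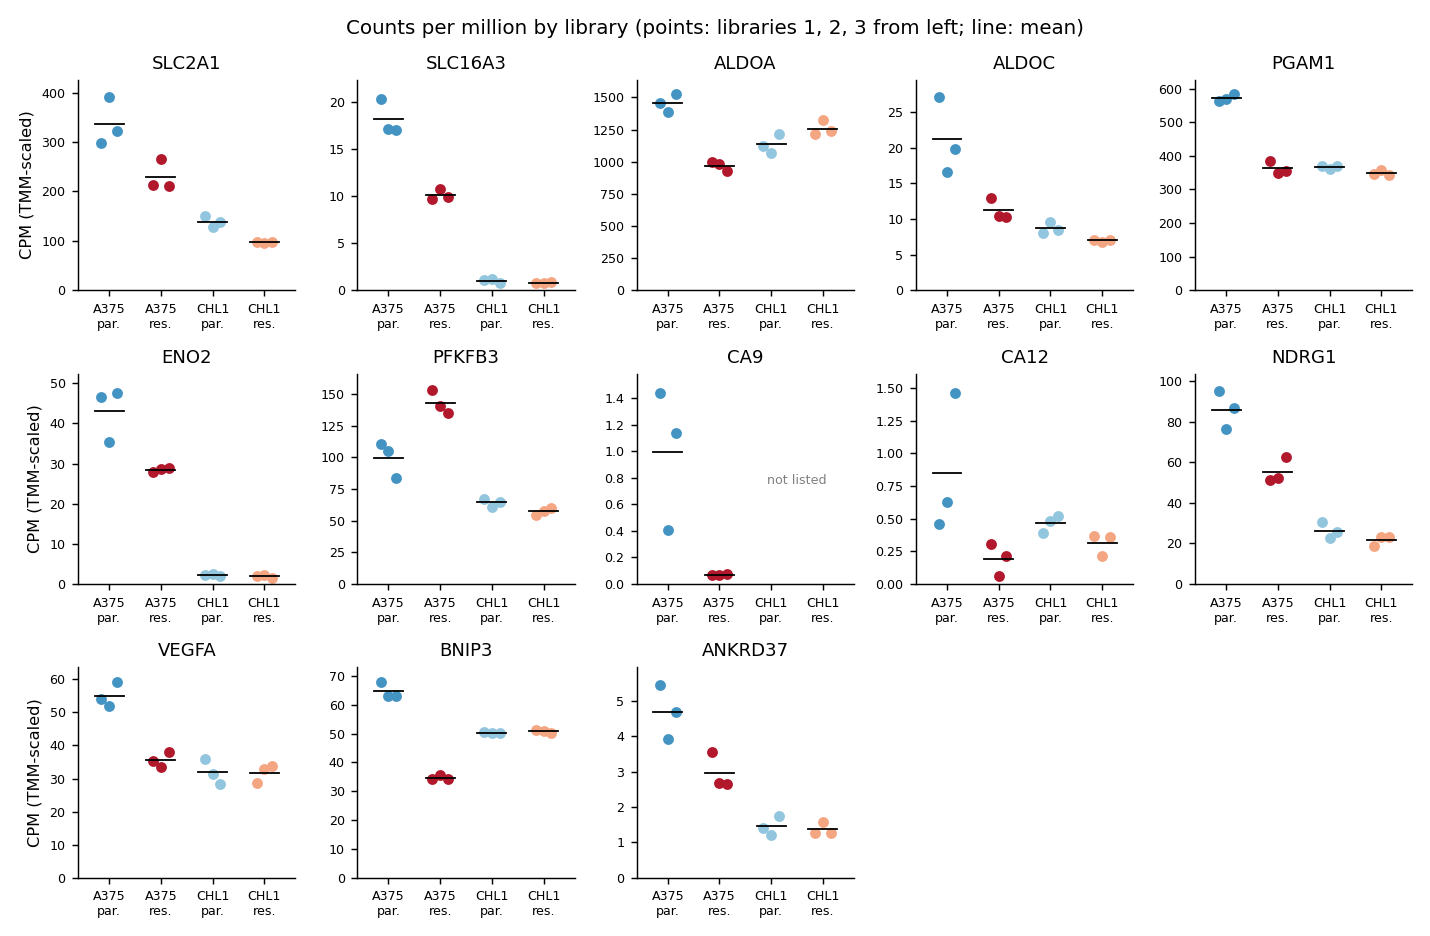
CPM in each library, scaled with TMM factors over 12 libraries, for the 13 genes called in A375 with a log2 change of at least 0.5 in size; points are libraries 1 to 3 from left, lines are means, and each panel has its own linear axis from 0. Resistant A375 libraries lie below all parental ones in 12 panels and above them for PFKFB3, while CHL1 groups overlap for SLC16A3, ALDOA, ENO2, NDRG1, VEGFA, BNIP3 and ANKRD37.

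Among the 16 glycolytic enzymes in A375, 2 rose, 6 fell and 8 were not called, with a median log2 fold change of -0.12. ALDOA (ENSG00000149925, chromosome 16), the main aldolase, stood at 1454, 1389 and 1530 CPM in parental and 999, 980 and 925 CPM in resistant libraries. Every resistant library was below every parental one. ALDOA fell by 0.59 ± 0.05 (edgeR adjusted p = 0.000102). The brain-type aldolase ALDOC (ENSG00000109107, chromosome 17) was 27.2, 16.6 and 19.8 CPM in parental and 13.0, 10.4 and 10.2 CPM in resistant libraries, with library 1 the highest of each group and no overlap. ALDOC fell by 0.92 ± 0.18 (edgeR adjusted p = 0.00494) but made up 1.16% ± 0.287 of aldolase counts per kilobase in parental and 0.926% ± 0.102 in resistant cells.

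Further along the pathway, the phosphoglycerate mutase PGAM1 (ENSG00000171314, chromosome 10) was 564, 569 and 585 CPM in parental and 385, 350 and 354 CPM in resistant A375. It fell by 0.66 ± 0.05 (edgeR adjusted p = 4.59e-05), with wide separation between the groups. The neuron-type enolase ENO2 (ENSG00000111674, chromosome 12) was 46.5, 35.3 and 47.6 CPM in parental and 27.9, 28.6 and 28.9 CPM in resistant libraries. Parental library 2 was the lowest of its group but still above all resistant ones, and ENO2 fell by 0.60 ± 0.11 (edgeR adjusted p = 0.00353). The major enolase ENO1 was 3869 ± 109 CPM (SD, n = 3) in parental and 3519 ± 94.2 CPM in resistant A375 and just missed the threshold (log2 -0.14, adjusted p = 0.0522).

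GAPDH, the glyceraldehyde phosphate dehydrogenase, fell by 0.23 ± 0.05 in A375 from 7782 ± 344 to 6648 ± 175 CPM (SD, n = 3; edgeR adjusted p = 0.00795). The triose isomerase TPI1 fell by 0.14 ± 0.04, from 929 ± 8.87 to 842 ± 7.58 CPM (edgeR adjusted p = 0.0336). That call was lost when parental library 2 or 3 or any 1 resistant library was left out, with log2 values from -0.14 to -0.13 and adjusted p from 0.0697 to 0.112, and under DESeq2 (adjusted p = 0.0702) or without the filter on low counts (0.0547). Against these decreases, GPI, the phosphoglucose isomerase, rose by 0.35 ± 0.05 from 619 ± 30.1 to 787 ± 24.7 CPM (edgeR adjusted p = 0.00126). PKM, the pyruvate kinase of most proliferating cells, rose by 0.31 ± 0.05 from 3703 ± 64.1 to 4600 ± 257 CPM (edgeR adjusted p = 0.00231), a sum over its splice forms. The ATP-making kinase PGK1 and the lactate dehydrogenase LDHA were not called, with log2 values of -0.03 (95% interval -0.12 to 0.05) and -0.02 (-0.10 to 0.07). Neither hexokinase (HK1 -0.09, HK2 -0.20) nor any of the phosphofructokinases (PFKL 0.07, PFKM 0.08, PFKP 0.21) was called. PFKP was called without parental library 3 (0.28, adjusted p = 0.0227) and HK2 without resistant library 1 (-0.30, 0.0352). Summed, the 16 enzymes took 2.23% ± 0.0603 of counts in parental and 2.12% ± 0.0404 in resistant A375 (SD, n = 3), while the 3 transporters took 0.0403% ± 0.00484 and 0.0285% ± 0.00339.

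Of the 3 regulators of flux, 1 rose and 2 were not called in A375, a share of 33.3% near the 28.3% of all genes tested. PFKFB3 (ENSG00000170525, chromosome 10) makes fructose 2,6-bisphosphate, the activator of phosphofructokinase. It stood at 111, 105 and 83.3 CPM in parental and 153, 140 and 135 CPM in resistant A375, with no overlap, and rose by 0.52 ± 0.10 (edgeR adjusted p = 0.00482). Its relative PFKFB4 spread widely, at 78.4, 46.6 and 57.6 CPM in parental and 51.4, 38.6 and 61.4 CPM in resistant libraries, and was not called (adjusted p = 0.365). The mitochondrial kinase PDK1, which switches off pyruvate dehydrogenase, was 13.7 ± 1.54 and 12.2 ± 1.32 CPM and was not called (adjusted p = 0.333).

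None of the 4 genes of the HIF subunits and prolyl hydroxylases was called in A375. HIF1A was 281, 330 and 316 CPM in parental and 282, 293 and 294 CPM in resistant libraries, with overlap and a log2 value of -0.09 (95% interval -0.22 to 0.04). EPAS1, which encodes HIF2 alpha, averaged 4.84 ± 1.51 and 5.003 ± 0.28 CPM. The hydroxylase EGLN1 (PHD2) was 74.7 ± 2.21 and 79.2 ± 3.23 CPM, and EGLN3 (PHD3), itself a HIF target, was near 1 CPM with 87 counts in parental and 85 in resistant libraries. The widest 95% interval of the 4, that of EGLN3, ran from -0.72 to 0.37.

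Of the 13 other HIF targets, 7 fell in A375, 0 rose and 6 were not called, with a median log2 fold change of -0.60. The share called was 53.8%, against 28.3% of all genes tested (14.8% lower). For the 41 further HIF targets tested, described below, the median was -0.055. The mitophagy receptor BNIP3 (ENSG00000176171, chromosome 10) was 67.8, 63.1 and 63.1 CPM in parental and 34.3, 35.6 and 34.2 CPM in resistant libraries. The groups were tight and far apart, and BNIP3 fell by 0.90 ± 0.06 (edgeR adjusted p = 1.87e-05). The angiogenic factor VEGFA (ENSG00000112715, chromosome 6) was 54.0, 52.1 and 59.1 CPM in parental and 35.4, 33.6 and 38.1 CPM in resistant libraries. It fell by 0.62 ± 0.07 (edgeR adjusted p = 0.000371) with no overlap.

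NDRG1 (ENSG00000104419, chromosome 8), a stress-induced gene long used as a hypoxia marker, was 95.0, 76.4 and 86.6 CPM in parental and 51.1, 52.0 and 62.6 CPM in resistant A375. It fell by 0.64 ± 0.10 (edgeR adjusted p = 0.00169), with the groups apart. ANKRD37 (ENSG00000186352, chromosome 4), an ankyrin repeat gene induced by HIF1A, was 5.46, 3.93 and 4.69 CPM in parental and 3.57, 2.68 and 2.65 CPM in resistant libraries. Parental library 2 and resistant library 1 lay close, and ANKRD37 fell by 0.66 ± 0.18 (edgeR adjusted p = 0.0237). Without parental library 1 or 3, or resistant library 2 or 3, it was no longer called, with adjusted p from 0.0544 to 0.0916 and log2 values from -0.66 to -0.54. ANKRD37 shares 909 exonic bases with UFSP2 on the opposite strand, which had 3644 counts in the A375 table against 642 for ANKRD37.

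The carbonic anhydrases, which help acid-producing cells hold their pH, had the largest fold changes on few reads. CA9 (ENSG00000107159, chromosome 9) was 1.44, 0.407 and 1.14 CPM in parental and 0.0674, 0.0637 and 0.0717 CPM in resistant A375, that is 80 against 6 counts. The resistant libraries were each under the level of 3 counts, which is 0.101 to 0.118 CPM. The ratio of the groups at equal depth was 14.5, with a counting interval of 6.4 to 40.8 that covers counting error only, and the edgeR adjusted p was 0.00189. CA9 shares 643 exonic bases with ARHGEF39 on the opposite strand. CA12 (ENSG00000074410, chromosome 15) was 0.455, 0.630 and 1.46 CPM in parental and 0.303, 0.0637 and 0.215 CPM in resistant libraries, 69 against 17 counts, with a ratio of 4.43 (2.58 to 8.03). Parental library 3 was the highest for CA12 and resistant library 2 the lowest. CA12 passed the test at an edgeR adjusted p of 0.025 but was lost without parental library 3 (log2 -1.48, adjusted p = 0.0713), resistant library 2 (-1.69, 0.072) or resistant library 3 (-2.21, 0.0691).

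The oxidase ERO1A fell by 0.22 ± 0.06, from 84.5 ± 3.66 to 72.4 ± 1.04 CPM (edgeR adjusted p = 0.0149). It was not called without parental library 3 (log2 -0.19, adjusted p = 0.0694) or resistant library 3 (-0.21, 0.0689). Not called were the collagen prolyl hydroxylases P4HA1 (0.01) and P4HA2 (-0.20), the mitophagy receptor BNIP3L (-0.16), the peptide hormone ADM (0.17), the histone demethylase KDM3A (0.23) and the lipase inhibitor ANGPTL4 (-0.60). ANGPTL4 ranged from 5.73 to 11.8 CPM within the parental group and from 2.90 to 9.21 CPM within the resistant one, and its 95% interval ran from -1.35 to 0.15; it was called with a replicate block (edgeR adjusted p = 0.0064). KDM3A was called without parental library 1 (0.30, adjusted p = 0.0296). Together the 13 genes took 0.0512% ± 0.00264 of counts in parental and 0.0416% ± 0.00112 in resistant A375.

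In CHL1, besides SLC2A1, 5 of the 16 enzymes fell: PFKM, PFKP, ALDOC, TPI1 and ENO1, by between 0.16 and 0.31 (log2), and the median of the 16 was -0.06. The share of enzymes called was 31.2%, against 21.0% of all genes tested. PFKP, the platelet-type phosphofructokinase, went from 72.2 ± 2.36 to 59.2 ± 2.99 CPM (log2 -0.28, edgeR adjusted p = 0.00244), and ENO1 from 2290 ± 84.1 to 2020 ± 39.8 CPM (-0.18, adjusted p = 0.0111). ALDOC was 8.05, 9.64 and 8.50 CPM in parental and 7.10, 6.84 and 7.11 CPM in resistant libraries, all lower, with an adjusted p of 0.042. PFKFB4 fell by 0.31 ± 0.10, from 8.50 ± 0.69 to 6.81 ± 0.476 CPM (adjusted p = 0.0448). HIF1A was 340, 318 and 298 CPM in parental and 284, 259 and 252 CPM in resistant CHL1, with no overlap, and fell by 0.26 ± 0.06 (edgeR adjusted p = 0.00707). EPAS1 stood at 9.65 ± 0.789 and 11.9 ± 1.33 CPM, also without overlap, but was not called (adjusted p = 0.0532).

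Of the 11 other HIF targets tested in CHL1, BNIP3L alone was called, lower by 0.17 ± 0.05 (94.4 ± 3.88 to 84.0 ± 3.97 CPM, edgeR adjusted p = 0.0378). The share called, 9.09%, lies below the 21.0% of all genes tested. BNIP3 was 50.6, 50.1 and 50.3 CPM in parental and 51.2, 51.0 and 50.4 CPM in resistant libraries, a log2 value of 0.02 with a 95% interval from -0.08 to 0.11. VEGFA was 35.9, 31.4 and 28.5 against 28.6, 33.0 and 33.9 CPM, with the groups overlapping. ADM had 21 counts in the parental and 39 in the resistant group and EGLN3 1 and 3, under the filter. Together the other HIF targets took 0.0517% ± 0.00255 of counts in parental and 0.0518% ± 0.001 in resistant CHL1, and the enzymes 1.11% ± 0.0339 and 1.12% ± 0.0128.

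Several CHL1 calls turned on single libraries. PFKM was lost without parental library 1 or 3 or resistant library 3 (log2 from -0.17 to -0.13, adjusted p from 0.0509 to 0.097), and TPI1 without parental library 1 or resistant library 3 (-0.15 and -0.14, adjusted p = 0.0793 and 0.0825). ALDOC and PFKFB4 were each lost without parental library 2 or 3 or any 1 resistant library, with adjusted p from 0.0631 to 0.147 for ALDOC and from 0.0515 to 0.134 for PFKFB4. BNIP3L was lost without any 1 parental library or resistant library 1 or 2 (adjusted p from 0.056 to 0.147). Under DESeq2 ALDOC and PFKFB4 were not called either (adjusted p = 0.0957 and 0.0997). SLC2A1, PFKP, ENO1 and HIF1A were called under every alternative run. Conversely, 6 genes not called in CHL1 were called when a library was left out: HK1 without resistant library 2 (adjusted p = 0.0473), ALDOA without parental library 3 (0.0229), PDK1 without parental library 3 or resistant library 1 (0.0474 and 0.0282), EPAS1 without resistant library 3 (0.0423), NDRG1 without parental library 2 (0.0422) and KDM3A without parental library 1 (0.0373).

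Whether the lines differed was tested as the interaction in a fit to all 12 libraries, the effect in CHL1 minus that in A375. Line, months in palbociclib and count table differ together here and cannot be told apart. Of 38 genes tested, 10 were called, 5 above and 5 below 0, where 23.6% of 19241 genes were called. Above 0 stood BNIP3 (0.91 ± 0.07, edgeR adjusted p = 8e-07), ALDOA (0.74 ± 0.08, 1.79e-05), VEGFA (0.62 ± 0.13, 0.00257), PGAM1 (0.59 ± 0.07, 1.68e-05) and GAPDH (0.26 ± 0.06, 0.00848). These 5 fell in A375 and were not called in CHL1. Below 0 stood PFKFB3 (-0.69 ± 0.13, edgeR adjusted p = 0.00106), PFKP (-0.49 ± 0.09, 0.00142), GPI (-0.40 ± 0.07, 0.00102), PKM (-0.26 ± 0.07, 0.0137) and PFKM (-0.26 ± 0.07, 0.0107). PFKFB3, GPI and PKM rose in A375, and PFKP and PFKM fell in CHL1. For SLC16A3, ENO2, ALDOC, NDRG1, ANKRD37 and CA12, called in A375, the difference between the lines was not called, with adjusted p from 0.0672 to 0.303. ALDOC was called there without A375 parental library 2 (0.72, adjusted p = 0.0145) or A375 resistant library 1 (0.73, 0.0351).

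Of the called genes, 4 sit among neighbours with the same direction of change. Gene order came from GENCODE 29, and the 20 nearest tested genes of each gene (10 on each side) were taken as a description. In resistant A375 the neighbours of GPI on chromosome 19 had a median log2 fold change of 0.44, above its own 0.35, and 14 of the 20 were called higher. On chromosome 10 the neighbours of PGAM1 had a median of -0.60 beside its own -0.66, with 15 of 20 called lower. Those of BNIP3, also on chromosome 10, had a median of -0.52 beside -0.90, and 20 of 20 lay below 0 with 12 called lower. For the 15 other genes called in A375, neighbour medians ran from -0.11 to 0.09. In CHL1, PFKFB4 on chromosome 3 stood at -0.31 beside a neighbour median of -0.38, with 12 of 20 called lower, and for the 8 other called genes the medians ran from -0.07 to 0.06. The part of the neighbourhood in each result was not tested.

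**Figure D3:**
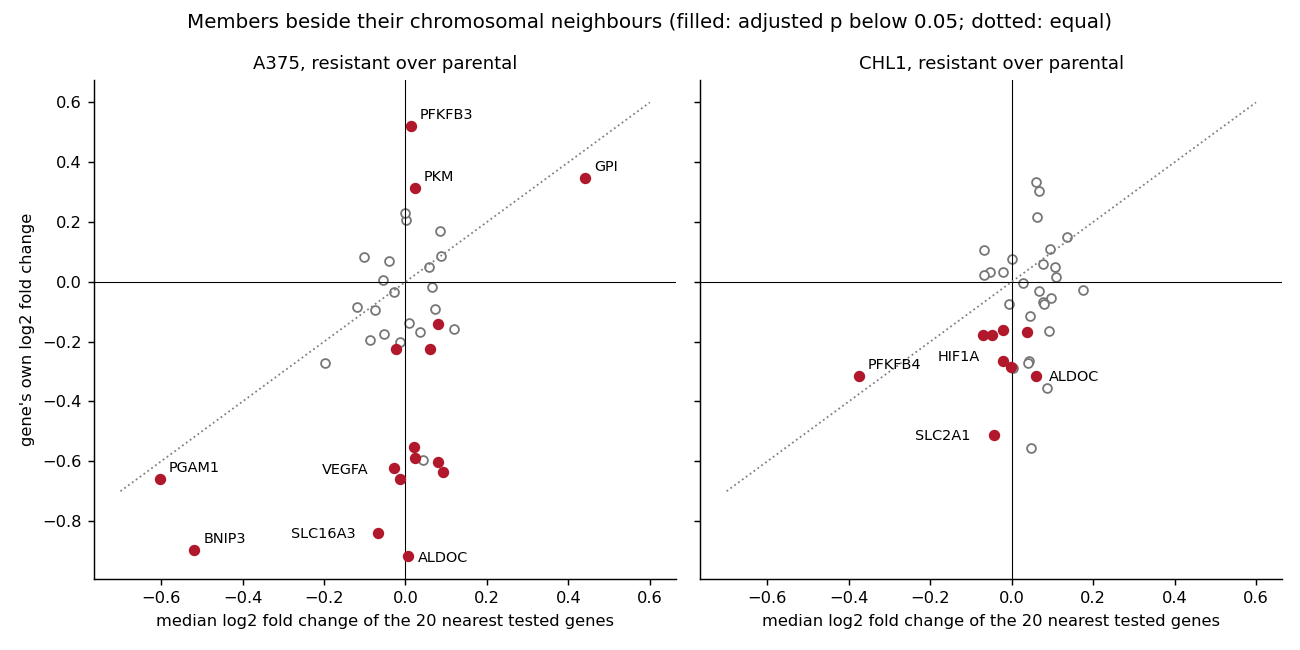
Each gene's log2 fold change (vertical) against the median of its 20 nearest tested genes (horizontal) in A375 (left) and CHL1 (right); filled points passed an adjusted p of 0.05, the dotted line marks equality, and CA9 and CA12 in A375 fall below the plotted range. GPI, PGAM1 and BNIP3 in A375 and PFKFB4 in CHL1 stand apart along the horizontal axis, while SLC16A3, ALDOC and PFKFB3 have neighbours near 0.

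The lines also differed at baseline, although line and count table cannot be told apart. Of 38 genes tested, 9 were higher and 24 lower in parental CHL1 than in parental A375, where 75.6% of all genes were called, 37.4% higher and 38.2% lower. All 3 transporters and 12 of 16 enzymes were lower in CHL1, with SLC16A3 at -4.16 ± 0.14, ENO2 at -4.24 ± 0.14, GPI at -1.65 ± 0.05, GAPDH at -1.22 ± 0.05 and PKM at -1.16 ± 0.05 (log2, SE). Enzymes higher in CHL1 were PFKL (0.89 ± 0.07), PFKM (0.73 ± 0.05) and HK1 (0.20 ± 0.06). HIF targets split: P4HA1 (1.14), BNIP3L (1.04), P4HA2 (0.98) and KDM3A (0.85) were higher, and ADM (-6.07), ANGPTL4 (-3.41), NDRG1 (-1.71), ANKRD37 (-1.69), VEGFA (-0.79) and BNIP3 (-0.36) were lower. HIF1A was not called (0.05, 95% interval -0.09 to 0.18), EPAS1 (1.00 ± 0.17) and EGLN1 (0.74 ± 0.05) were higher, and EGLN3, at 1.08 ± 0.225 CPM in A375, had 1 count in 3 parental CHL1 libraries.

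Between the resistant lines 13 genes were higher and 20 lower in CHL1, where 76.6% of all genes were called. ALDOA and BNIP3 changed sides: they were lower in CHL1 than in A375 among parental cells (-0.36 ± 0.06 and -0.36 ± 0.05) and higher among resistant cells (0.38 ± 0.06 and 0.55 ± 0.05). PGAM1 and VEGFA, lower in CHL1 among parental cells (-0.65 and -0.79), were not called between resistant lines (-0.06 and -0.17), though both were called under the 1 CPM filter (adjusted p = 0.0353 and 0.0375), and VEGFA was also called without A375 resistant library 2 (0.0399) or CHL1 parental library 3 (0.0497). The PGK1 call between parental lines (-0.10) was lost without any 1 A375 parental library or CHL1 parental library 2 or 3. It was also lost without CHL1 resistant library 1 or 3, with edgeR adjusted p from 0.0513 to 0.114 over these runs. Without the filter on low counts it was lost as well (-0.083, edgeR adjusted p = 0.137). GPI and PFKP stood further apart in resistant cells (-2.06 and -2.03) than in parental cells (-1.65 and -1.53). These comparisons draw on the libraries of the within-line tests and are not separate evidence.

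**Figure D4:**
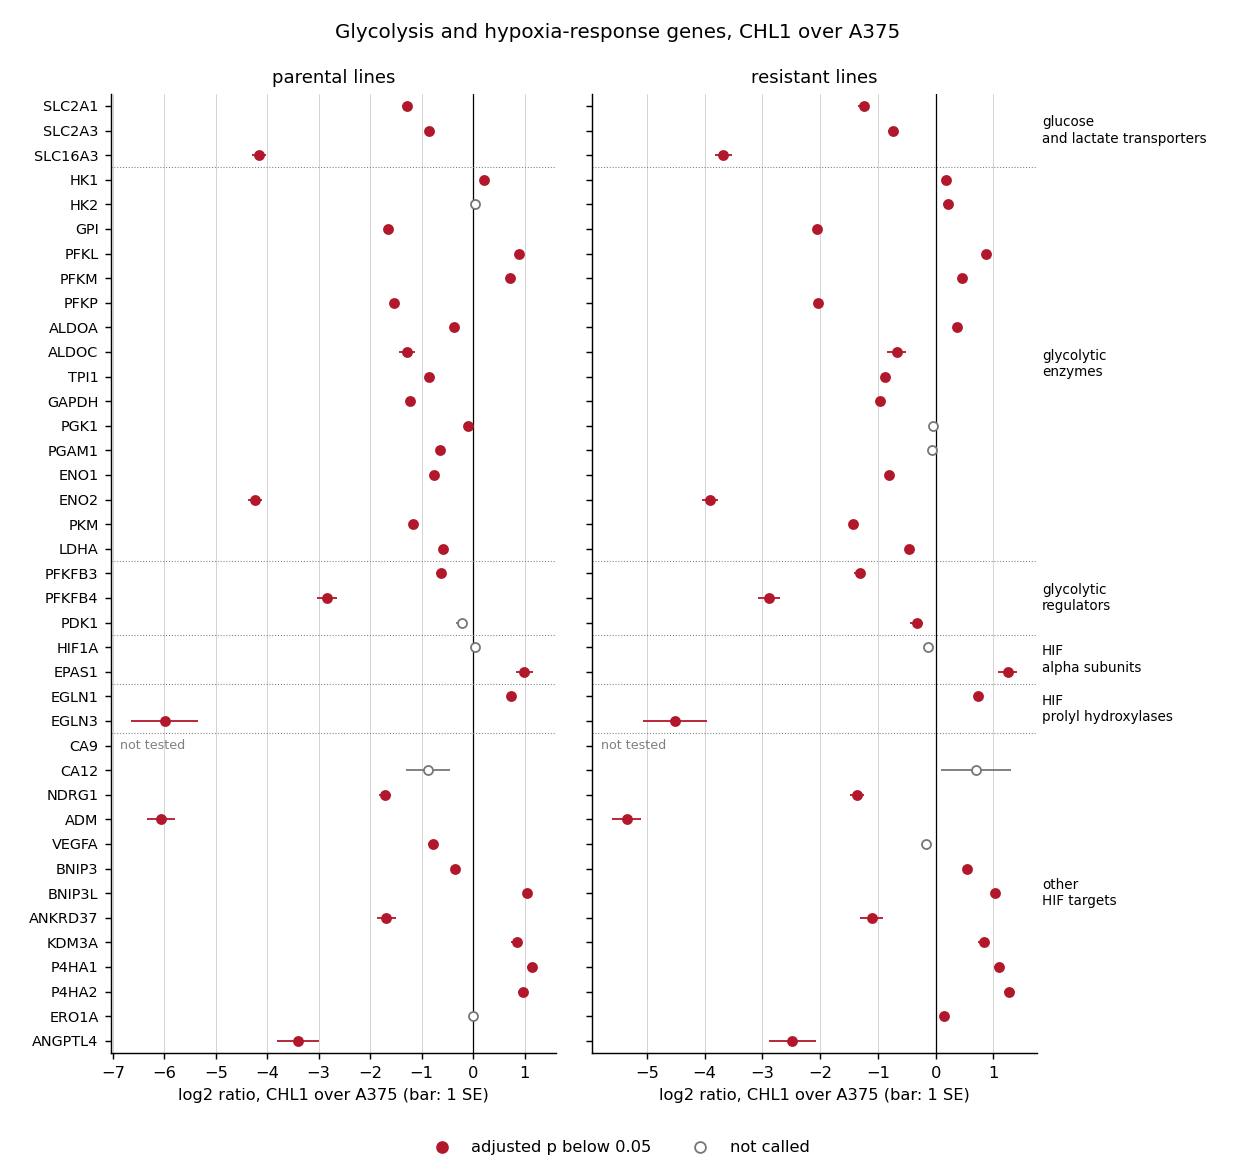
Log2 ratio of CHL1 over A375 for each gene, in rows grouped by role, among parental (left) and resistant (right) libraries; bars are 1 SE and filled points passed an adjusted p of 0.05. The 3 transporters lie below 0 in both panels, and ALDOA and BNIP3 lie below 0 on the left and above 0 on the right.

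On a scale of CPM per kilobase of the principal transcript, the order of abundance among the enzymes in parental A375 ran from GAPDH (4150) through ENO1 (1650), PKM (1363), ALDOA (909), TPI1 (755), LDHA (446) and PGAM1 (313) to PGK1 (165) and GPI (148). In parental CHL1 it ran GAPDH (1778), ENO1 (976), ALDOA (708), PKM (610), TPI1 (417), LDHA (298), PGAM1 (200) and PGK1 (154), with GPI at 46.9. Phosphofructokinase, the committed step, was made up differently in the lines. PFKP held 59.1% ± 1.97 of the family's counts per kilobase in parental and 61.3% ± 1.59 in resistant A375, but 22.4% ± 0.175 and 19.8% ± 0.544 in CHL1 (SD, n = 3). PFKM held 23.1% ± 0.886 in parental A375 and 41.8% ± 1.35 in parental CHL1, and PFKL 17.7% ± 1.36 and 35.9% ± 1.5. PFKFB3 made up 53.1%, 64.4% and 53.6% of the PFKFB3 and PFKFB4 pool in parental A375 and 70.5%, 74.4% and 63.8% in resistant A375, overlapping in 1 library of each group, against 85.8% ± 1.31 and 87.1% ± 0.444 in CHL1. HIF1A supplied 98.8% ± 0.352 of HIF1A and EPAS1 counts per kilobase in parental A375 and 97.8% ± 0.135 in parental CHL1. With exon-union lengths in place of principal transcripts the PFKP shares in resistant cells were 69.0% in A375 and 26.1% in CHL1.

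**Figure D5:**
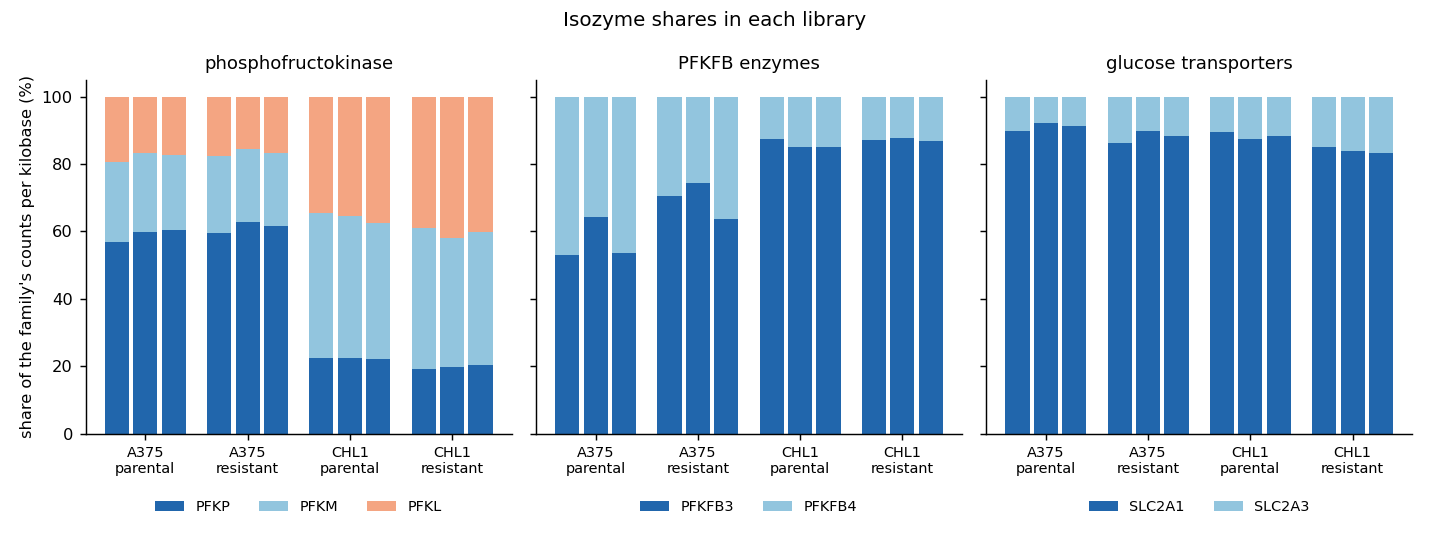
Share (%) of each isozyme in its family's counts per kilobase in each library, with 3 bars per group, for phosphofructokinase, the PFKFB enzymes and the glucose transporters. PFKP (dark) fills 56.9% to 62.8% of the A375 bars and 19.3% to 22.5% of the CHL1 bars.

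Genes next to these pathways were counted from further lists, to be read against the 28.3% of all genes called in A375 and the 21.0% in CHL1. Of 17 other glycolytic isozymes and glucose enzymes tested in A375, 3 rose and 4 fell; those that rose were the glucose transporter SLC2A12 (1.65 ± 0.16, edgeR adjusted p = 0.00013), the hexokinase-like HKDC1 (1.18 ± 0.16) and the lactate dehydrogenase LDHB (0.21 ± 0.04). In CHL1 2 of 15 rose and 3 fell, among them the lactate transporter SLC16A1 (-0.27 ± 0.04, edgeR adjusted p = 0.000768), PGM1 (-0.31 ± 0.05) and LDHB (-0.13 ± 0.04). Of 16 HIF control genes, 1 rose and 3 fell in A375, a share below the 28.3% of all genes: CUL2 (0.20 ± 0.06), the asparaginyl hydroxylase HIF1AN (-0.52 ± 0.07), CITED2 (-0.64 ± 0.15) and ARNT2 (-0.65 ± 0.20). In CHL1 VHL, the ubiquitin ligase subunit that binds hydroxylated HIF, was the 1 of 16 that passed (-0.42 ± 0.06, edgeR adjusted p = 0.000258). HIF1AN lies on chromosome 10 among neighbours with a median of -0.54 in A375, and VHL on chromosome 3 among neighbours with a median of -0.34 in CHL1.

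Of further HIF targets outside the 39, 5 were called higher and 9 lower of 41 in A375 (34.1%, against 28.3% of all genes) and 3 higher and 10 lower of 40 in CHL1 (32.5%, against 21.0%). In A375 the smallest adjusted p-values were those of the creatine transporter SLC6A8 (-0.57 ± 0.06), the stanniocalcins STC2 (-1.98 ± 0.20) and STC1 (0.82 ± 0.10), and the nuclear receptor RORA (1.22 ± 0.16). In CHL1 they were those of STC1 (-1.03 ± 0.09), the glycogen branching enzyme GBE1 (-0.73 ± 0.07), FAM162A (-0.80 ± 0.09) and TGFBI (-0.66 ± 0.08). STC1 thus rose in one line and fell in the other, from 19.5 ± 1.71 to 34.3 ± 3.5 CPM in A375 and from 34.4 ± 4.36 to 16.8 ± 1.44 CPM in CHL1, and the difference of -1.85 ± 0.15 had an edgeR adjusted p of 9.89e-07. GBE1 and FAM162A lie on chromosome 3 among neighbours with medians of -0.54 and -0.44 in CHL1, and SLC6A8 on chromosome X among neighbours with a median of -1.01 in A375.

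Where pyruvate meets the mitochondrion, 0 rose and 2 fell of 13 genes in each line, a share of 15.4% that lies below that of all genes (28.3% in A375, 21.0% in CHL1): pyruvate carboxylase PC (-0.78 ± 0.14) and the carrier subunit MPC1 (-0.44 ± 0.09) in A375, and the dehydrogenase subunit PDHB (-0.56 ± 0.05) and phosphatase PDP1 (-0.33 ± 0.10) in CHL1. In the pentose phosphate pathway, which drains glucose 6-phosphate to make NADPH, PGLS (-0.78 ± 0.07) fell and PGD (0.24 ± 0.06) rose in resistant A375. In resistant CHL1 transketolase TKT fell (-0.53 ± 0.06) and transaldolase TALDO1 rose (0.20 ± 0.04). PGLS on chromosome 19 had a neighbour median of -0.48 in A375, and TKT and PDHB on chromosome 3 of -0.45 and -0.38 in CHL1. Of the gluconeogenic genes, PCK2, the mitochondrial phosphoenolpyruvate carboxykinase, fell in both lines (-0.55 ± 0.13 in A375, edgeR adjusted p = 0.0117, and -0.27 ± 0.08 in CHL1, adjusted p = 0.0253), with G6PC3 higher (0.13 ± 0.04) and PCK1 lower (-0.68 ± 0.15) in CHL1.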

How the data were processed

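Each of the 2 deposited tables holds whole-number read counts per Ensembl gene, without normalisation, for 6 libraries. The tools HTSeq 0.5, TopHat2, limma, CASAVA 1.8.2 and cutadapt 1.7 are listed without roles per the submitters' processing notes. The build and annotation behind the counts were not given in the sources used here. The kit does not mark strand. Symbols came from a name table and GENCODE 29.

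The counts as deposited by the authors were tested with edgeR 4.0.16 in R 4.3.3: TMM factors, filterByExpr at its minimum count of 10, and its quasi-likelihood test, two-sided, adjusted by Benjamini-Hochberg over all genes tested. Each line was fitted alone; the difference between lines and the comparisons of lines used 1 fit to 12 libraries over genes in both tables. CPM used TMM factors over 12 libraries, and levels per kilobase the GENCODE principal transcript. Intervals given as 95% are 1.96 SE, with the SE from the F statistic. They run narrower than the test with so few libraries. HK2 in A375, for 1, had an interval from -0.38 to -0.02 at an unadjusted edgeR p of 0.0578. Total counts were 25398920 to 29812686, and 3 counts equal 0.101 to 0.118 CPM; such limits and the intervals of count ratios cover counting error only. Promoters came from RefSeq. The fits were also run on counts simulated from their own model with independent libraries, and the outcome is not reported here. Such a run cannot address shared cultures or paired libraries.

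The members and lists were chosen with earlier results of these data known. Values per library are given for members called with a log2 change of at least 0.5 in either line, and up to 4 genes are named per further list and line by smallest adjusted p; others were named after their values were seen. Some genes of the further lists are not reported here. Alternatives were RLE factors, no filter, a 1 CPM filter, DESeq2 1.42.0, a replicate block and leaving out each library.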

Additional observations from a re-analysis of the deposited data

Results flagged for a closer look

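The effect of resistance differed between the lines, by an interaction test over 12 libraries, for 10 of the 38 genes tested. That share of 26.3% lies near the 23.6% of all 19241 genes tested. Such a difference cannot be told apart from one of months in palbociclib or of count table. The difference, CHL1 minus A375 on the log2 scale, was 0.913 for BNIP3, 0.739 for ALDOA, 0.619 for VEGFA, 0.589 for PGAM1 and 0.259 for GAPDH. It was -0.685 for PFKFB3, -0.494 for PFKP, -0.404 for GPI, -0.264 for PKM and -0.263 for PFKM. All 10 were called under each alternative setting run. BNIP3 and PGAM1 in A375 stand among neighbours lowered on chromosome 10 and GPI among neighbours raised on chromosome 19, and the part of those neighbourhoods was not tested.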

How the results depend on the processing

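No member that was called reversed its direction under RLE factors, other filters, DESeq2, the replicate block or leaving out a library. Of the 18 called in A375, 14 were called under each of these, the exceptions being TPI1, CA12, ANKRD37 and ERO1A, and of the 9 in CHL1 4 were. In CHL1, fitting without the filter on low counts gave 15 called members, 3 higher (ALDOA, EPAS1 and KDM3A) and 12 lower, of 38 tested; the cause was not tested. Leaving out 1 library gave 14 to 18 called members in A375, 6 to 7 in CHL1 and 10 to 11 for the difference between lines. Same-numbered libraries deviated together with r from -0.007 to 0.274 in A375 and from 0.007 to 0.146 in CHL1. Differently numbered ones had r from -0.311 to 0.071 in A375 and from -0.096 to 0.07 in CHL1. The headers repeat the same library labels in both groups of a line. The main fits did not take the numbers as pairs, and these values do not settle whether they are. The replicate block changed the calls over all genes from 5111 to 6307 in A375 and from 3623 to 4339 in CHL1. With the replicate block 23 members were called in A375 (5 higher, 18 lower), 13 in CHL1 (2 higher, 11 lower) and 13 for the difference, adding HK2, PFKP, ENO1, KDM3A and ANGPTL4 (-0.65, edgeR adjusted p = 0.0064) in A375. CA9 and EGLN3 in A375, ADM and EGLN3 in CHL1 and CA12 in both lines rest on too few counts for small changes to be detectable at this depth.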
